A study of Mus musculus with 12 samples.

Results

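Type I interferon stimulated genes were examined in the spleen, as a fixed list of 37 gene symbols, all of which had a row among the 32121 genes counted and all of which were expressed highly enough to be tested. The members run from Irf7, Irf9 and Stat2, which carry the interferon signal to the nucleus, to nucleic acid sensors and antiviral effectors such as Isg15, the Ifit and Oas families, Mx1 and Rsad2. Each of 6 mouse spleens gave 2 pieces, and the messenger RNA of each piece was sequenced as 1 library. The study set spleens of 3 animals with the genotype VEC-Cre, SB Transposase and onc2 (here SB animals 1 to 3) against those of 3 wild-type animals (controls 1 to 3), and compared pieces to ask whether a spleen was uniform. All 6 animals are labelled C57BL/6; their ages are not known from the labels, and the numbers 1 to 3 only name the animals.

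In SB animals, VEC-Cre is a Cre recombinase under the promoter of VE-cadherin, a gene of endothelial cells and of the embryonic endothelium that gives rise to blood. Sleeping Beauty (SB) is a transposase that moves the mutagenic transposon onc2, so that each animal can carry its own insertions. The controls carry none of these 3 alleles by their label.

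Type I interferons (interferon alpha and beta) bind the receptor IFNAR1 and IFNAR2 and activate the kinases JAK1 and TYK2. STAT2 and IRF9 then act in the factor ISGF3, which binds interferon-stimulated response elements in promoters and switches on the genes described here. In the spleen, macrophages, dendritic cells and lymphocytes all carry a basal level of these transcripts, which rises after viral infection or sensing of nucleic acids.

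Libraries held 14320833 to 22031026 counts, and the 37 genes took 0.226% to 0.303% of them in control libraries. In pieces 1 and 2 their share was 0.167% and 0.180% for SB animal 1. It was 0.422% and 0.416% for SB animal 2, then 0.241% and 0.232% for SB animal 3. Levels below are CPM, counts scaled to a common library size by the trimmed mean of M values (TMM), for the summed pieces of an animal unless a piece is named. Markers of the usual spleen cells were present in controls, but all 10 B cell markers fell in SB animals, beside 9.75% of all genes tested. Their summed level was 68.0 to 156 CPM in SB animals against 8406 to 9364 CPM in controls. Also, H2-Ea-ps, whose level depends on the H2 haplotype and which C57BL/6 mice carry with a promoter deletion, stood at 0.0971 to 0.242 CPM in SB animals and at 91.7 ± 5.39 CPM (SD, n = 3) in controls. Strain background and genotype therefore cannot be told apart in the comparison of SB animals with controls, and in bulk tissue neither can fewer cells of a type and less RNA per cell.

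Promoters of 4 members that rose in SB animals are shown first, with that of Isg15 as a reference member, because they carry the letters of an interferon response element. The windows hold 250 bases before and 50 bases after the start of the gene, 300 in all, from RefSeq on GRCm38.p6, written 5′ to 3′ on the strand of the gene. The motif searched was GAAA, any 2 bases and GAAA, together with its reverse complement TTTC, any 2 bases and TTTC, so on both strands, with overlapping matches allowed, and capitals mark the matches.
Ifitm3, chr7:141010695-141010994 (- strand): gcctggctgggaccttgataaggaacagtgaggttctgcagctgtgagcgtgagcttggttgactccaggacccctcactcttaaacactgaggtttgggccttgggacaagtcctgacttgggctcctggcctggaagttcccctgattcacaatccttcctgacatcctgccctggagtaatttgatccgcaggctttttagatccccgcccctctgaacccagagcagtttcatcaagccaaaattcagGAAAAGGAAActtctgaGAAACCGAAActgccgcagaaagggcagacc
Eif2ak2, chr17:78882523-78882822 (- strand): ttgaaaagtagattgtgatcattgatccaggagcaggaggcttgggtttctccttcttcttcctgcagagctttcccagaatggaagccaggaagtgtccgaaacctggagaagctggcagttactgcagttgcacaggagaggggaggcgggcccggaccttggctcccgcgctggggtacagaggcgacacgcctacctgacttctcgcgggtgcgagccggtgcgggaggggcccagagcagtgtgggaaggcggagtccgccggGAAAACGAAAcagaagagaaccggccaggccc
Ifih1, chr2:62646206-62646505 (- strand): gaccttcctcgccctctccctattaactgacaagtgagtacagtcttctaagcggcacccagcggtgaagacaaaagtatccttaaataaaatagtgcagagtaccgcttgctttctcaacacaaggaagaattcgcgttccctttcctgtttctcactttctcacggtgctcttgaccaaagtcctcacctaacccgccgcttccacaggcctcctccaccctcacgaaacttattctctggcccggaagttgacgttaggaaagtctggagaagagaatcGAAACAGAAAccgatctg
Oas1a, chr5:120907476-120907775 (- strand): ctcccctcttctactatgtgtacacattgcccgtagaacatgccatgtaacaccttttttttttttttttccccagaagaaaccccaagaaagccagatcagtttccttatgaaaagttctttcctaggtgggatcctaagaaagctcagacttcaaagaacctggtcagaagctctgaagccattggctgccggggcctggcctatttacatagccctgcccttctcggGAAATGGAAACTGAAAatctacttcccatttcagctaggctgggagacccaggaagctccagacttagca
Isg15, chr4:156200769-156201068 (- strand): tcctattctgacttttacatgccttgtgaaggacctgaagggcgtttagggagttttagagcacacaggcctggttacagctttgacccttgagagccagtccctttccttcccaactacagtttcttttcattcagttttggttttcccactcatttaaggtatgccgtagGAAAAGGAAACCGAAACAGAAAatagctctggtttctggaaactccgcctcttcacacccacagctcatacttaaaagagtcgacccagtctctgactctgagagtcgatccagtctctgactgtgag

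Of the 37 genes, 27 had a promoter in this RefSeq table, and 14 of those (51.85%) held the motif, against 3.993% of all 27025 genes with a promoter. The 14 were Ifih1, Ddx58, Isg15, Oas3, Oas1a, Trim30a, Ifitm3, Bst2, Stat2, Rsad2, Eif2ak2, Ifit3, Ifit3b and Ifit1. No match was found in the windows of Sp100 and Samd9l, the 2 members that fell in SB animals. The same held for Ifi44, Oasl2, Oasl1, Herc6, Irf7, Xaf1, Ifi35, Cmpk2, Irf9, Dtx3l and Ifit2, which were not called. Ddx58, lower in all SB libraries than in all control libraries, did hold a match. Whether the motif goes with the direction of change was not tested. Members without an entry were Oas2, Mx1, Mx2, Usp18, Dhx58, Ifi27l2a, Rtp4, Zbp1, Parp9 and Parp14. Ifit3 and Ifit3b are near copies of each other on chromosome 19, and the windows around their matches, chosen after their values were seen, were identical over 64 of 64 bases. Whether the counting split reads between the 2 genes was not tested.
Ifit3, chr19:34583363-34583426 (+ strand): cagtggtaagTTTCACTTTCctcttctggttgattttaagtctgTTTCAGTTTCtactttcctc
Ifit3b, chr19:34607759-34607822 (+ strand): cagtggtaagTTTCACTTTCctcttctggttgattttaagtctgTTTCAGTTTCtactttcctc

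The first comparison asked which of these genes differed between SB animals and controls. Across 3 against 3 animals, 4 of 37 members rose and 2 fell in edgeR's quasi-likelihood test (Benjamini-Hochberg adjusted p under 0.05 over all 17328 genes tested). Oas1a, Ifih1, Eif2ak2 and Ifitm3 rose, and Sp100 and Samd9l fell. Among all genes tested, 18.3% were called, 8.59% as higher and 9.75% as lower, so the 16.2% of members called lay close to the background. At an unadjusted p under 0.05 there were 13 members, or 35.1%, against 35.6% of all genes. The median log2 change of the 37 members was 0.72, beside 0.11 for all genes tested.

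Ifitm3 is a membrane protein that blocks the entry of viruses, ENSMUSG00000025492 at chr7:141009586-141010770 (GRCm38). Its level was 280, 361 and 209 CPM in SB animals 1, 2 and 3 against 51.9, 56.8 and 64.7 CPM in controls 1, 2 and 3. All 6 SB libraries lay above all 6 control libraries, and the estimate was log2 2.29 (SE 0.24, edgeR adjusted p = 0.00483). Eif2ak2 encodes PKR, a kinase that senses double-stranded RNA and stops translation (ENSMUSG00000024079, chr17:78852564-78882573). It reached 48.5, 69.9 and 68.9 CPM in SB animals against 20.5, 20.2 and 22.1 CPM in controls. These groups did not overlap either, with an estimate of log2 1.57 (SE 0.20, edgeR adjusted p = 0.00714).

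Ifih1 encodes MDA5, a cytosolic sensor of long double-stranded RNA (ENSMUSG00000026896, chr2:62595798-62646255). Its level was 249, 86.3 and 77.2 CPM in SB animals 1, 2 and 3 against 17.3, 18.3 and 18.7 CPM in controls. SB animal 1, which was low for most of the list, held the most Ifih1, 13.7 times the control mean. The estimate over the group was log2 2.92 (SE 0.50, edgeR adjusted p = 0.0153). Oas1a, an oligoadenylate synthetase that makes the activator of RNase L (ENSMUSG00000052776, chr5:120896256-120907521), reached 22.5, 51.9 and 22.3 CPM in SB animals against 5.26, 7.57 and 8.27 CPM in controls. All 3 SB animals were above all 3 controls, with an estimate of log2 2.19 (SE 0.43, edgeR adjusted p = 0.0218).

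Samd9l, an antiviral gene that restrains blood cell growth (ENSMUSG00000047735, chr6:3372257-3399572), had 97.7, 91.6 and 97.9 CPM in SB animals against 252, 288 and 324 CPM in controls. It fell by 1.59 on the log2 scale (SE 0.16, edgeR adjusted p = 0.00421), and the SB animals were nearly equal to each other. Sp100, which encodes a component of PML nuclear bodies (ENSMUSG00000026222, chr1:85649988-85709998), had 150, 266 and 238 CPM in SB animals against 478, 517 and 572 CPM in controls. It fell by 1.26 on the log2 scale (SE 0.25, edgeR adjusted p = 0.0235), with no overlap between the groups.

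**Figure D1:**
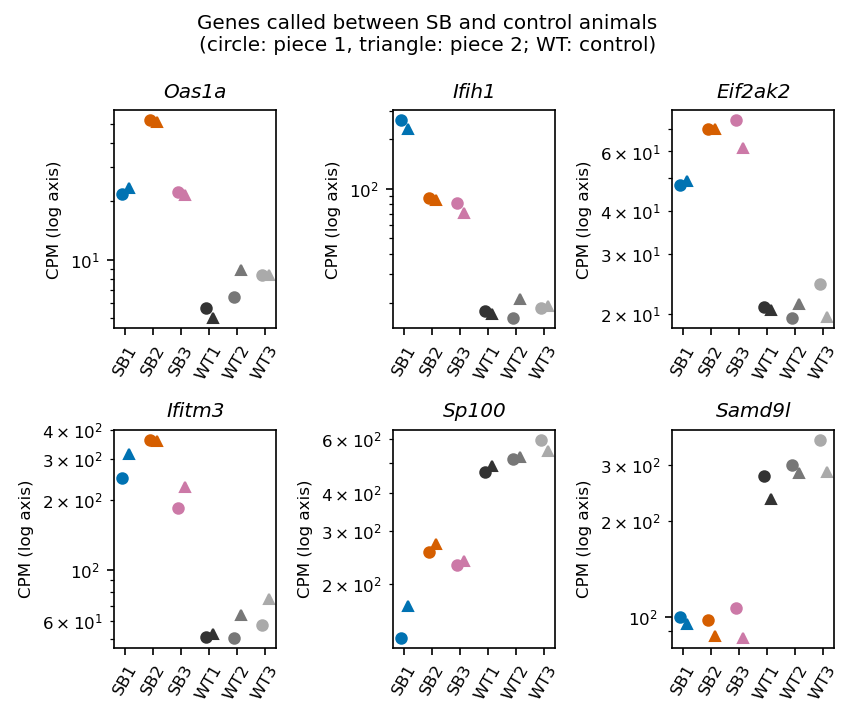
CPM (log axis) of the 6 members called between SB animals and controls, in each of 12 libraries; circles are piece 1 and triangles piece 2, colours mark animals, and WT means control. In all 6 panels the SB libraries lie wholly on one side of the control libraries, and Ifih1 is highest in SB animal 1.

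Ifitm3 and Samd9l were called in each of the 6 fits that left out 1 animal. Eif2ak2 lost its call without control 2 (edgeR adjusted p = 0.0552), and Oas1a, Ifih1 and Sp100 lost theirs without any 1 of the 3 controls, with adjusted p of 0.0796 to 0.107; of all genes, 3.07% to 4.56% were called in those fits. Leaving out an SB animal changed other members. Without SB animal 1, 13 members were called higher, among them Oas2, Isg15, Usp18, Oasl1, Ifi44 and Cmpk2, beside 12.1% of all genes. Without SB animal 2, 9 were called lower, among them Rsad2, Zbp1, Ifi27l2a, Mx2 and Stat2, beside 18.5% of all genes.

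Among the rest of the list, Xaf1, a pro-apoptotic gene, was the remaining member with all SB libraries above all controls, at 37.9, 146 and 102 CPM against 21.1, 24.1 and 34.3 CPM, and Ddx58 (RIG-I, the sensor of short 5′-triphosphate RNA) the remaining one below, at 41.1, 68.0 and 89.1 CPM against 102, 120 and 135 CPM. Neither passed the edgeR test (adjusted p = 0.0536 and 0.103), though voom called Xaf1 higher and Ddx58 lower, and DESeq2 called Xaf1 higher. The groups separated upward for 5 of 37 members and downward for 3, beside 13.2% and 16.4% of all genes.

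Several members with large mean changes did not pass in edgeR, and SB animals differed widely in them. Oas2, a second oligoadenylate synthetase, had the largest estimate, with log2 2.96 (SE 1.13, edgeR adjusted p = 0.121). Oasl2 and Ifi44, both interferon-induced antiviral genes, had log2 2.36 and 1.97 (SE 0.83 and 0.70, edgeR adjusted p = 0.101 and 0.104).

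The second comparison therefore asked how the SB spleens differed among themselves. SB animal 2 was high, SB animal 1 low and SB animal 3 between for 30 of 37 members, an order held by 21.1% of all genes tested. Against the mean of the controls, the median difference of the 37 members in log2(CPM + 1) was -0.72 in SB animal 1, 1.43 in SB animal 2 and 0.20 in SB animal 3. Over all genes tested, these medians lay between -0.02 and -0.01. The test that the 3 SB animals were equal was called for 36 of 37 members, all but Samd9l, beside 72.9% of all 15523 genes tested in the 12 libraries. This test takes its error from the spread between pieces of 1 spleen, so its p-values compare these spleens and not genotypes.

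Set against the mean of the other 2 SB animals, SB animal 2 was higher for 33 of 37 members, beside 30.6% of all genes, and lower for Ifih1 alone (background 27%). SB animal 1 was lower for 32 of 37, beside 29.4% of all genes, and higher for Ifih1 alone (background 27.1%). SB animal 3 was higher for 7 members (background 23.8%) and lower for 12 (background 24.6%). The exceptions to the common order were Ifih1, Oas1a, Ifitm3, Trim30a, Samd9l, Ddx58 and Ifit2.

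**Figure D2:**
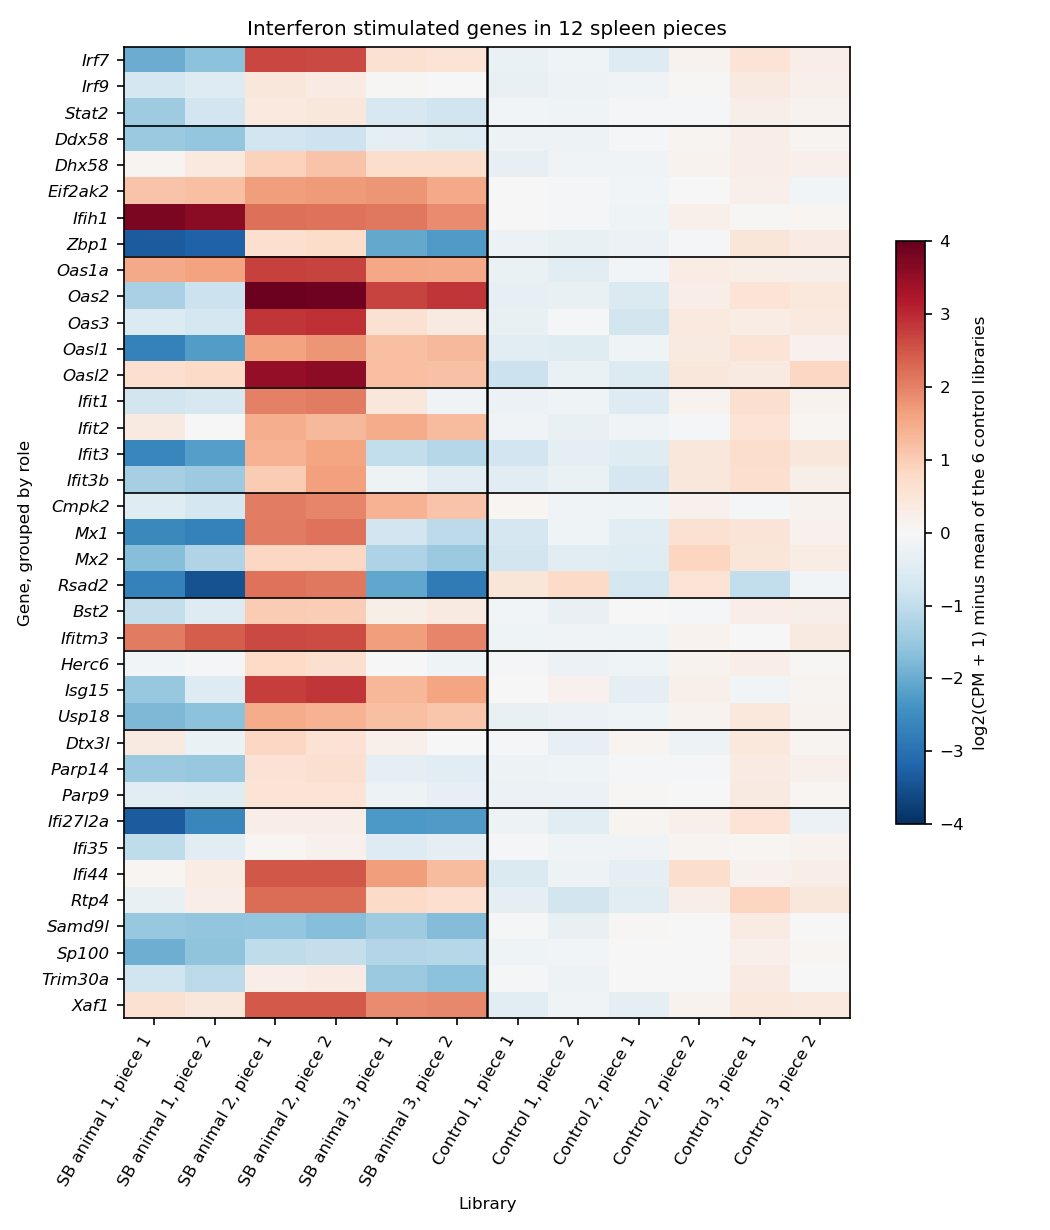
Each row is 1 of the 37 genes, grouped by role, and each column 1 library; colour is log2(CPM + 1) minus the mean of the 6 control libraries, drawn from -4 to 4. Red fills most of SB animal 2 (median 1.43) and blue most of SB animal 1 (median -0.72). The pieces look alike in most spleens, though in control 2, 31 of 37 genes were higher in piece 2.

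Irf7 is the factor that amplifies the response by inducing interferon alpha genes. Its level was 16.5 CPM in SB animal 1, 388 CPM in SB animal 2 and 92.9 CPM in SB animal 3, against 52.2, 54.3 and 81.3 CPM in controls. SB animals 2 and 3 were thus above, and SB animal 1 below, every control. The genotype test gave log2 1.40 (SE 1.00, edgeR adjusted p = 0.359), whereas SB animal 2 against the other 2 SB animals gave log2 3.32 (SE 0.16, edgeR adjusted p = 7.09e-09). Exons of Irf7 overlap those of Phrf1 on the opposite strand, and reads within the overlap cannot be told apart by strand in these unstranded libraries.

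The ISGF3 components on the list spanned a narrower range. Stat2 was at 67.5, 193 and 89.2 CPM in SB animals against 130, 137 and 164 CPM in controls, and Irf9 at 94.4, 188 and 148 CPM against 121, 139 and 176 CPM. Both had the highest value in SB animal 2 and the lowest in SB animal 1, and neither differed between genotypes in edgeR (log2 -0.30 and -0.02, adjusted p = 0.633 and 0.976). Exons of Irf9 also overlap those of Rnf31.

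Of the sensors, Zbp1, which recognises left-handed nucleic acids and can start necroptosis, had the smallest p in the test among SB animals (edgeR adjusted p = 6.67e-10). It was at 3.81, 75.4 and 9.66 CPM in the 3 SB animals, in that order of number, against 37.5, 40.6 and 61.0 CPM in controls. SB animals 1 and 3 therefore lay below every control and SB animal 2 above, a split unlike that of Ifih1 and Eif2ak2, which were high in all 3. Dhx58 (LGP2), a regulator of the RIG-I-like receptors, was at 35.1, 61.9 and 48.6 CPM against 24.7, 29.3 and 34.6 CPM. All 3 SB animals were above every control, though piece 1 of SB animal 1 (31.8 CPM) lay within the range of control libraries.

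The oligoadenylate synthetases and their relatives had the largest median in SB animal 2 of the 9 role groups, log2 2.87 above controls, with 1.26 in SB animal 3 and -0.64 in SB animal 1. Oas2 was at 4.09, 159 and 74.4 CPM across SB animals 1, 2 and 3 against 7.61, 8.97 and 13.9 CPM in controls. SB animals 2 and 3 were 15.7 and 7.33 times the control mean and SB animal 1 was below every control. Oasl1, which limits translation of Irf7, was at 1.34, 40.9 and 30.1 CPM against 8.33, 12.9 and 15.8 CPM. Oasl2 was at 22.9, 169 and 32.7 CPM against 9.24, 13.9 and 20.7 CPM, so that here SB animal 1 was not below controls.

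Isg15, a ubiquitin-like protein attached to other proteins, was at 10.2, 153 and 59.9 CPM in SB animals against 22.2, 19.9 and 20.5 CPM in controls. Usp18, the protease that removes it and also dampens the receptor, was at 3.81, 42.0 and 34.8 CPM against 12.2, 14.7 and 18.6 CPM. In both genes SB animals 2 and 3 were above every control and SB animal 1 was below. Genotype tests gave log2 1.84 (SE 0.85) for Isg15 and 0.83 (SE 0.78) for Usp18, with edgeR adjusted p of 0.181 and 0.491.

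Other effectors split differently, with SB animal 3 falling on the low side. Rsad2 (viperin), an enzyme that makes a chain-terminating nucleotide, was at 15.4, 577 and 24.5 CPM across SB animals 1, 2 and 3 against 204, 135 and 90.3 CPM in controls. Its neighbour Cmpk2, a nucleotide kinase whose product viperin uses, was at 18.3, 115 and 69.3 CPM against 27.0, 27.8 and 28.2 CPM. Only Cmpk2 was above controls in SB animal 3, although both genes lie close together on chromosome 12. Mx1, a gene of the Mx GTPase family measured here as RNA only, was at 1.48, 66.3 and 7.38 CPM against 10.7, 16.1 and 18.7 CPM. Its ratio between SB animals was the widest on the list, at 44.9.

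Ifi44, a cytoplasmic antiviral gene of low level, was at 2.73, 17.6 and 8.35 CPM in SB animals against 1.56, 2.92 and 2.82 CPM in controls. Ifi27l2a, a small hydrophobic protein gene, was at 6.76, 71.6 and 11.5 CPM against 46.6, 65.2 and 70.4 CPM. It had the third lowest genotype estimate of the list, log2 -1.02 (SE 0.87, edgeR adjusted p = 0.443), with SB animals 1 and 3 below every control. SB animal 2 was barely above control 3, and piece 1 of control 3 (87.2 CPM) exceeded both pieces of SB animal 2 (71.7 and 71.4 CPM). Parp14, an ADP-ribosyltransferase, was at 52.1, 230 and 114 CPM against 130, 140 and 178 CPM. Ddx58, Zbp1, Ifi27l2a, Rsad2 and Mx1 thus lay below every control in SB animals 1 and 3, where Ifih1, Eif2ak2, Ifitm3 and Oas1a lay above.

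**Figure D3:**
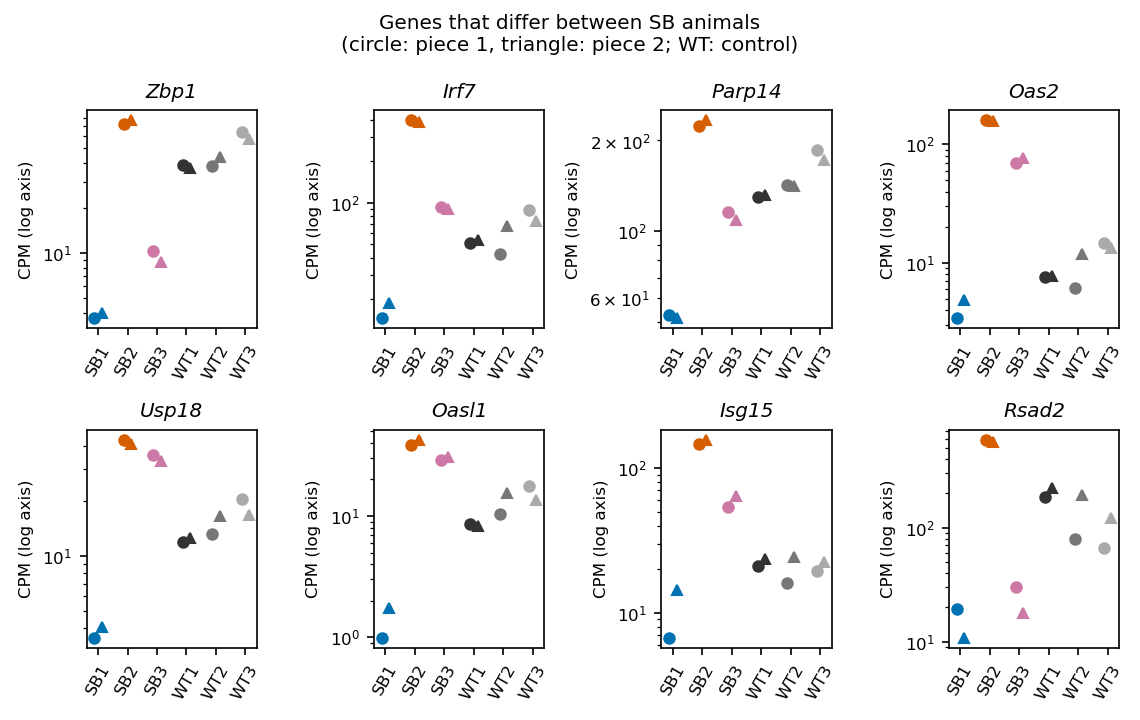
CPM (log axis) of 8 members in each of 12 libraries: the 6 with the smallest p in the test of SB animals, with Isg15 and Rsad2; circles are piece 1, triangles piece 2, and WT means control. SB animal 2 is highest and SB animal 1 low in each panel. SB animal 3 is above controls for Irf7, Oas2, Usp18, Oasl1 and Isg15 but below them for Zbp1, Parp14 and Rsad2.

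Counted per gene, both pieces of SB animal 2 were above all 6 control libraries for 29 of 37 members and below for 3, beside 33.6% and 33.9% of all genes. Both pieces of SB animal 1 were above for 5 (background 31.4%) and below for 24 (background 34.9%), and those of SB animal 3 above for 15 (background 33.7%) and below for 13 (background 35.7%). The ratio of the highest to the lowest SB animal had a median of 4.41 and ran from 1.07 for Samd9l to 44.9 for Mx1. Among controls the median ratio was 1.45, and it was the smaller of the 2 for 36 of 37 genes. Over all genes tested the median ratios were 2.19 among SB animals and 1.17 among controls, and the controls had the smaller ratio for 91.8% of genes.

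Per kilobase of exon, the scale on which genes can be compared with each other, controls had most Ifi27l2a (131 CPM per kilobase), Bst2 (88.0) and Ifitm3 (85.3) and least Ifi44 (0.398). SB animal 2 had most Ifitm3 (533 CPM per kilobase), Isg15 (203) and Bst2, the virion tether tetherin (178). Ifih1 moved from 2.22 CPM per kilobase in controls to 30.4 in SB animal 1.

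The controls were far more alike, with 0 of 37 members called in edgeR's test that they were equal, beside 0.47% of all genes, although 18 had an unadjusted p under 0.05, beside 6.83%. Control 3 had the highest level of 34 of the 37 members and control 1 the lowest of 34, where 34.7% and 33.3% of all tested genes did so. Rsad2 was 1 exception, at 204 CPM in control 1 and 90.3 CPM in control 3.

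Genes upstream of the list did not follow a single direction. Of 21 type I interferon and related ligand genes on the list used, 11 had a row in the counts and the other 10 are not analysed here. The type I ligands among them had at most 6 counts in a library and 1 to 11 in all, so nearly all lay at or under a floor of 3 counts. Ifnb1, interferon beta, had 0 counts in each control library and 0 to 2 in SB libraries, and no fold is given. The interferon gamma gene Ifng had 19 and 24 counts in SB animal 2, 0 to 3 in the other SB libraries and 10 to 24 in control libraries.

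None of 9 receptor and kinase genes or 8 further transcription factors was called between genotypes, beside 18.3% of all genes. The receptor chain Ifnar1 was at 49.3, 156 and 72.5 CPM in SB animals against 120, 128 and 131 CPM in controls, and Ifnar2 at 59.1, 129 and 58.8 CPM against 81.2, 80.9 and 84.1 CPM. SB animal 2 was the highest SB animal for both genes, and their log2 changes in edgeR were -0.45 and 0.00 (adjusted p = 0.481 and 0.997).

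Of 13 upstream sensing genes, Cgas, which detects cytosolic DNA, rose and Traf3, an adaptor, fell. Of all genes, 8.59% were called higher and 9.75% lower, so 1 of 13 in each direction lay close to the background. Cgas was at 20.5, 27.3 and 36.2 CPM in SB animals against 5.99, 5.17 and 6.33 CPM in controls (log2 2.26, SE 0.28, edgeR adjusted p = 0.00705), and Traf3 at 56.8, 36.0 and 50.7 CPM against 132, 129 and 141 CPM (log2 -1.48, SE 0.20, edgeR adjusted p = 0.0086). Rnaseh2a and Rnaseh2b, subunits of the enzyme that removes RNA from DNA hybrids, were the 2 of 11 negative regulators that rose (background 8.59%). Their changes were log2 0.96 and 1.41 (SE 0.22 and 0.21, edgeR adjusted p = 0.0342 and 0.00991). Of 53 other interferon stimulated genes tested, 5 rose and 8 fell, beside 8.59% and 9.75% of all genes. Ifitm2, a close relative of Ifitm3, had log2 2.83 and Slfn3 2.20, while Shisa5 had -2.94 and Helz2 -2.25 (SE 0.28, 0.33, 0.48 and 0.40, edgeR adjusted p = 0.00416, 0.0102, 0.0131 and 0.0176). Of these 8 genes, Ifitm2 was called without any 1 animal, whereas Cgas lost its call without control 2, Traf3 without control 2 or 3, and the other 5 without any 1 control. Without SB animal 2, Ifnar1 and Ifnar2 were called lower (log2 -1.06 and -0.48, edgeR adjusted p = 0.0168 and 0.0203).

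Markers of several cell types, myeloid, erythroid and lymphoid, were also highest in SB animal 2 among the SB animals. Summed over 12 red pulp macrophage markers, the level was 1191, 15226 and 1318 CPM in SB animals 1, 2 and 3 and 1482 to 1621 CPM in controls. All 12 were higher in SB animal 2 than in the other 2 SB animals in edgeR, beside 30.6% of all genes, and none of the 12 was at 0. As above, this test takes its error from pieces of 1 spleen and compares these spleens only. For 8 monocyte markers the sums were 267.4, 3595 and 554 CPM against 506 to 554 CPM, and for 10 neutrophil markers 108, 2409 and 977 CPM against 147 to 343 CPM. Erythroid markers summed to 4377, 50775 and 3538 CPM against 26945 to 57659 CPM, and 9 of 10 were called higher in SB animal 2 than in the other SB animals (background 30.6%). T cell markers, of which 8 of 10 fell against controls (background 9.75%), summed to 40.01, 129 and 29.4 CPM against 991 to 1115 CPM, and NK cell markers to 15.4, 56.3 and 36.5 CPM against 88.8 to 95.5 CPM. Of these, 9 of 10 and 7 of 8 were called higher in SB animal 2 (background 30.6%). Plasmacytoid dendritic cells, potent producers of interferon alpha, had marker sums of 145, 475 and 139 CPM against 806 to 906 CPM. Of these 10 markers, 4 fell against controls (background 9.75%), and 7 were called higher in SB animal 2 than in the other SB animals (background 30.6%). Among them, Klk1 was at 0 in SB animals 1 and 2. The part of these cell types in the levels of the 37 genes was not tested.

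**Figure D4:**
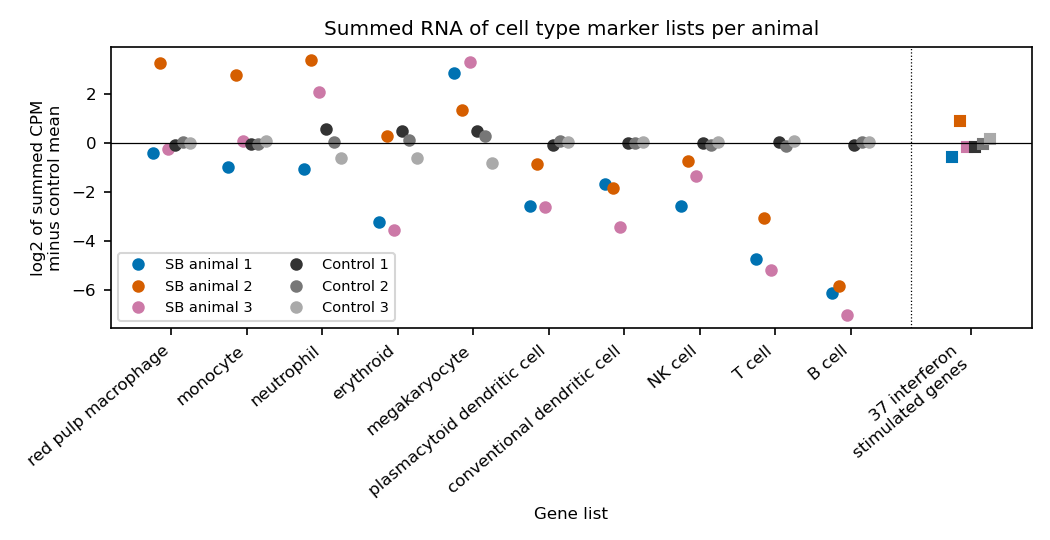
Summed CPM of 10 cell type marker lists and of the 37 interferon stimulated genes in each animal, as log2 minus the mean of the 3 controls. SB animal 2 lies above the other SB animals for 8 of 10 lists, all but megakaryocyte and conventional dendritic cell markers, and for the 37 genes (0.92 above controls), and all SB animals lie far below controls for B cell markers.

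The third comparison asked whether the pieces of a spleen differed. Pieces 1 and 2 are sections 1 and 2 of SB spleens but sections A and B of control spleens, and no label matches these names. Tests over all animals and of the difference between genotypes therefore rest on an assumed match of sections. In SB animals, 0 of 37 members were called between pieces by edgeR with the animal as a block, beside 0.00644% of all genes, and 7 at an unadjusted p under 0.05, beside 22%. In controls 3 were called, beside 9.75%. Oasl2 was higher in piece 2 (log2 0.72, SE 0.12, adjusted p = 0.00876), Rsad2 was higher (log2 0.80, SE 0.19, adjusted p = 0.0377) and Dtx3l, a ubiquitin ligase, was lower (log2 -0.30, SE 0.09, adjusted p = 0.0491). The difference between genotypes was called by edgeR for 0 members, beside 1.37% of all genes, and 4 had an unadjusted p under 0.05, beside 18.2%.

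Oasl2 in pieces 1 and 2 was 7.09 and 11.1, 9.01 and 19.0, and 17.7 and 24.9 CPM in controls 1, 2 and 3, higher in piece 2 each time. Rsad2 was 185 and 223, 79.8 and 192, and 66.2 and 123 CPM in the same controls. In SB animals Rsad2 was lower in piece 2, with 19.2 and 10.9, 594 and 564, and 30.2 and 17.8 CPM. Under the assumed match of sections, the interaction of Rsad2 missed the threshold (log2 -1.29, SE 0.28, edgeR adjusted p = 0.066). It passed when SB animal 2 or control 1 was left out, with an adjusted p of 0.0485 and 0.00342, and that of Oasl2 passed without SB animal 1 (edgeR adjusted p = 0.035). Between pieces of controls, the calls for Oasl2 and Rsad2 were lost without control 2 or control 3, and that for Rsad2 also without SB animal 1, which shares the estimate of spread.

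Dtx3l was the 1 member called over all animals (background 3.05%), lower in piece 2 by log2 -0.33 (SE 0.06, edgeR adjusted p = 0.0348). It was lower in piece 2 in 6 of 6 spleens, and both results rest on the assumed match of sections. It was at 83.4 and 54.4, 116 and 97.1, and 75.0 and 64.3 CPM in SB animals 1 to 3, and at 61.6 and 51.3, 69.6 and 56.2, and 87.9 and 69.7 CPM in controls 1 to 3. Its exons overlap those of Parp9 on the opposite strand, whose log2 difference was -0.08. The call for Dtx3l was lost without SB animal 3 or any 1 control, with adjusted p of 0.074 to 0.126, and its call in controls was lost in the same 4 fits. In control 2, 31 of 37 members were higher in piece 2, with a median log2(CPM + 1) difference of 0.34, and 6 of them differed by more than a log2 of 1. The medians were between -0.15 and 0.10 in the other 5 spleens.

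**Figure D5:**
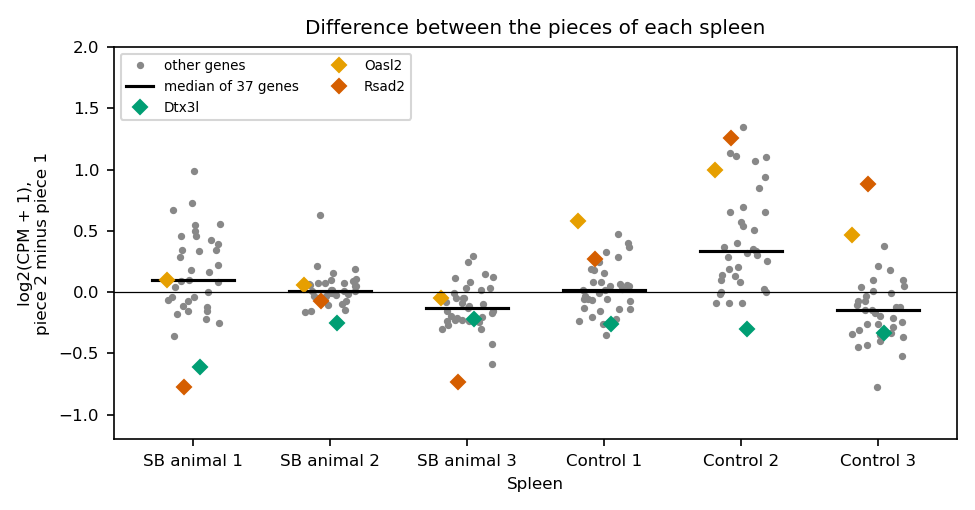
Difference in log2(CPM + 1) between piece 2 and piece 1 of each spleen; each point is 1 of the 37 genes, black bars are medians, and Dtx3l, Oasl2 and Rsad2 are coloured. Control 2 has the highest median (0.34), Dtx3l lies below 0 in all 6 spleens, and Rsad2 lies above 0 in controls and below 0 in SB animals. The match of sections between SB and control spleens is assumed, so signs cannot be compared between genotypes from the labels.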

How the data were processed

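By the labels' protocols, spleen RNA was made into 12 poly-A libraries that carry no strand. The authors deposited whole-number read counts per Ensembl gene, not normalised, judged from the values. STAR 2.5.3a and limma, and mm10 and GRCm38, are named in the submitters' processing notes without a role. For the counting mode and the annotation release, the sources used here give nothing. Of 32121 genes, 32026 were matched by identifier to GENCODE M21 symbols.

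The animal was the replicate. Pieces are paired by the animal in their titles. Sections A and B of controls were taken as pieces 1 and 2, but no label matches them to sections 1 and 2 of SB animals. Within each genotype, deviations of the pieces of a spleen from the mean of their genotype and piece were correlated across 17328 genes. The correlation was 0.939 to 0.957 in SB animals but only 0.165 to 0.490 in controls. No label pairs SB animals with controls.

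SB animals were compared with controls on counts summed over pieces using edgeR 4.0.16 in R 4.3.3 (TMM, filterByExpr, robust quasi-likelihood fit, two-sided, Benjamini-Hochberg over all genes tested, called at an adjusted p under 0.05). Pieces and animals were compared in fits on the 12 libraries. The form of the fit was chosen after results were seen: the first runs used edgeR's older quasi-likelihood fit, and its bias-adjusted form was then made the reported one because it matched earlier processing of these data. SEs were taken from the F statistic. Levels in log2 use a pseudocount of 1 CPM, which understates changes of low genes.

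The 37 genes and all lists were chosen with earlier results of these data known. Values in every animal were given for members called between genotypes or pieces, the 6 of smallest p among SB animals, the 6 highest and 4 lowest genotype estimates, and Irf7, Irf9, Stat2 and Isg15; Xaf1, Dhx58, Cmpk2 and Mx1 were added after their values were seen. Of other lists, up to 4 called genes of smallest adjusted p were named, with Ifnar1, Ifnar2 and Ifnb1; 1 further gene is not reported here. Alternatives were DESeq2 1.42.0, limma 3.58.1 voom, other scaling, no low-count filter, single pieces, and leaving out each animal. The test scripts were tested on simulated data. Counts are few for some members, and the floor of 3 counts covers counting error only.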

Additional observations from a re-analysis of the deposited data

Results flagged for a closer look

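Among 74 groups of 6 libraries (37 members in each genotype), 1 held a library set apart from the others. Trim30a, an interferon-induced regulator of inflammatory signalling, was at 192 CPM in piece 1 of control 3, where the nearest control library held 149 CPM, a gap of 0.722 of the group's range. Chance would flag about 1 in 20 groups, and pieces of 1 spleen are not independent.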

How the results depend on the processing

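The 6 members called between genotypes were called with other scaling (DESeq2 size factors, or without antigen receptor and globin genes), no low-count filter, a fit that was not robust, piece 1 only, piece 2 only, DESeq2, voom and the older quasi-likelihood fit, which was added after the data were seen and called 2961 genes where the reported fit called 3178. DESeq2 called 8 members higher, beside 12.9% of all genes, and voom 5 higher and 3 lower, beside 10.9% and 14.9%. The members added were Xaf1, Oas2, Oasl2 and Ifi44 in DESeq2, and Xaf1 (higher) and Ddx58 (lower) in voom. Piece 1 only also added Xaf1, beside 9.25% of all genes called higher. Leaving out 1 animal gave 1 to 13 members higher and 1 to 9 lower: 13 rose without SB animal 1 and 9 fell without SB animal 2, beside 12.1% of all genes called higher and 18.5% called lower in those fits, and 1 or 2 rose and 1 fell without 1 of the controls. Rnaseh2a lost its call without the filter and in piece 2 only (adjusted p = 0.0526 and 0.0504). The cause was not tested.

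Estimates that changed sign were those of Irf7 (-0.20) and Rsad2 (-2.84) without SB animal 2, Parp14 (0.20) and Irf9 (0.21) without SB animal 1, Irf9 (0.13) without control 3, and Oasl1 (-0.0221) and Rsad2 (-1.21) in voom. Ifnar2, at 0.00, turned to -0.000694 with DESeq2 size factors, -0.0103 without antigen receptor and globin genes in the scaling, -0.0283 without the filter, -0.00840 in DESeq2, -0.13 in voom, -0.0334 in piece 1, -0.48 without SB animal 2 and -0.02 without control 1 or control 2. Between pieces, Rsad2 over all animals turned to -0.0504 without control 2, and the interaction of Dtx3l to 0.0683 without SB animal 1. Leaving out 1 animal gave ranges of -0.20 to 1.94 for Irf7, -2.84 to 1.07 for Rsad2, -0.85 to 0.20 for Parp14, -0.26 to 0.21 for Irf9 and -0.48 to 0.20 for Ifnar2, and between pieces -0.0504 to 0.36 for Rsad2 and, for the interaction of Dtx3l, -0.13 to 0.0683.

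Without the animal as a block (no pairing of pieces), 0 members were called lower over all animals, and 0 higher and 0 lower in controls. Without the low-count filter 1 was called higher and 0 lower between pieces of controls, and 2 differed among controls. Leaving out 1 animal gave 0 to 2 members lower over all animals, 0 to 1 called in SB animals, 0 to 3 higher and 0 to 2 lower in controls, and 0 to 1 for the interaction. No fit that pairs SB animals with controls was made, because their numbers only name them. Each group holds 3 animals, and rare transcripts such as the interferon genes lie at the detection floor.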
